A study of Saccharomyces cerevisiae with 6 samples.

Results

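Ribosome biogenesis factors are the proteins that cut, fold and modify ribosomal RNA and assemble it with ribosomal proteins before leaving the finished subunits to work in translation. The genes described are 60 budding yeast factors listed by name, matched by symbol to probe sets that read 1 gene, with the probe set of the highest mean taken for each gene. All 60 were measured, out of 5656 genes in all. They comprise 7 core proteins of small nucleolar ribonucleoproteins (snoRNPs), 20 factors of the small-subunit processome, 29 factors of the large subunit and 4 that act on both subunits or more generally. The levels came from 6 one-colour Affymetrix arrays of total RNA from whole cells, 2 per strain. The strains were M1 and M8, mutants of Tra1 of the class called GID, for Gal4 interaction defective, and the wild type (WT). All 3 strains grew in YPD, a rich glucose medium, and received no treatment. Tra1 is the activator-binding scaffold shared by the histone acetyltransferase complexes SAGA and NuA4. The amino acid changes, the strain background, the culture density at harvest and whether duplicates came from separate cultures are not stated by the labels, so p-values measure only the spread between these arrays, which may be technical.

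In yeast, a single long precursor is transcribed by RNA polymerase I and processed in the nucleolus into the small-subunit RNA and most of the large-subunit RNA. Box C/D snoRNPs guide methylation and box H/ACA snoRNPs guide pseudouridylation of this precursor, while the processome, built on the U3 snoRNP, forms the small subunit and a separate series of pre-60S particles forms the large one. The genes of these factors are known as a regulon that yeast raises together in fast growth and lowers together in stress and starvation.

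Across 9275 probe sets, pairs of the 6 arrays had a Pearson's r of 0.988 to 0.998, and their medians lay between 6.48 and 6.52 on the log2 scale. Levels below are deposited log2 levels and differences are differences of log2 means from 1 limma fit over all 5656 genes, with p-values adjusted by the Benjamini-Hochberg method. A difference was called at an adjusted p under 0.05. Levels of different genes are not set against each other, because each probe set has its own response. TRA1 had log2 levels of 8.49 and 8.79 in M1 and of 8.85 and 8.59 in M8, against 8.41 and 8.11 in WT, which does not check the labels of an altered protein. The M1 duplicates differed more from each other than those of M8 and WT, with an SD of the difference between replicates over the 60 genes of 0.390 in M1, 0.134 in M8 and 0.195 in WT. The fit pools the spread of all groups, so SEs, intervals and p-values of M8 minus WT also carry the spread of the M1 duplicates. Because whole cultures were profiled, fewer cells of a type and less RNA per cell cannot be told apart.

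In M8, most of the 60 genes had lower mean levels than in WT, by small amounts. The median difference of M8 minus WT was -0.11 over the 60 genes, a linear change of -7.21%, against 0.029 over all genes. A fitted difference below 0 was found for 48 of the 60 genes, or 80% of them, against 43% of all genes. In 25 of them, or 41.7%, both M8 arrays lay below both WT arrays, a pattern found in 19.1% of all genes, while 1 gene, NOP2, a 25S rRNA methyltransferase gene, had its M8 arrays above those of WT, a pattern found in 29% of all genes. Individually, 0 of the 60 genes were called by limma in M8 in either direction, as were 0% of all genes. At an unadjusted p under 0.05 limma gave 4 genes lower and 0 higher, against 2.32% and 4.74% of all genes. The smallest adjusted p among the 60 was 0.660, and the ordinary linear model without moderation also called 0 of them in M8 and in every comparison below.

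The lower median was seen on both M8 arrays. Relative to the mean of the WT arrays, the median of the 60 genes was -0.069 on M8 replicate 1 and -0.12 on M8 replicate 2. The same median was 0.045 on M1 replicate 1, -0.015 on M1 replicate 2, -0.029 on WT replicate 1 and 0.029 on WT replicate 2. Signals of 91 tRNA genes, which encode no message, were also lower in M8, with medians of -0.26 and -0.17 on M8 replicates 1 and 2, against 0.0078 and -0.0078 on the WT replicates. The 57 measured small nucleolar RNA genes had medians of -0.18 and -0.13 on the M8 replicates, against 0.082 and -0.082 on the WT replicates. The part of these RNA classes in the result was not tested, nor was whether the 3' labelling measures their abundance.

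**Figure D1:**
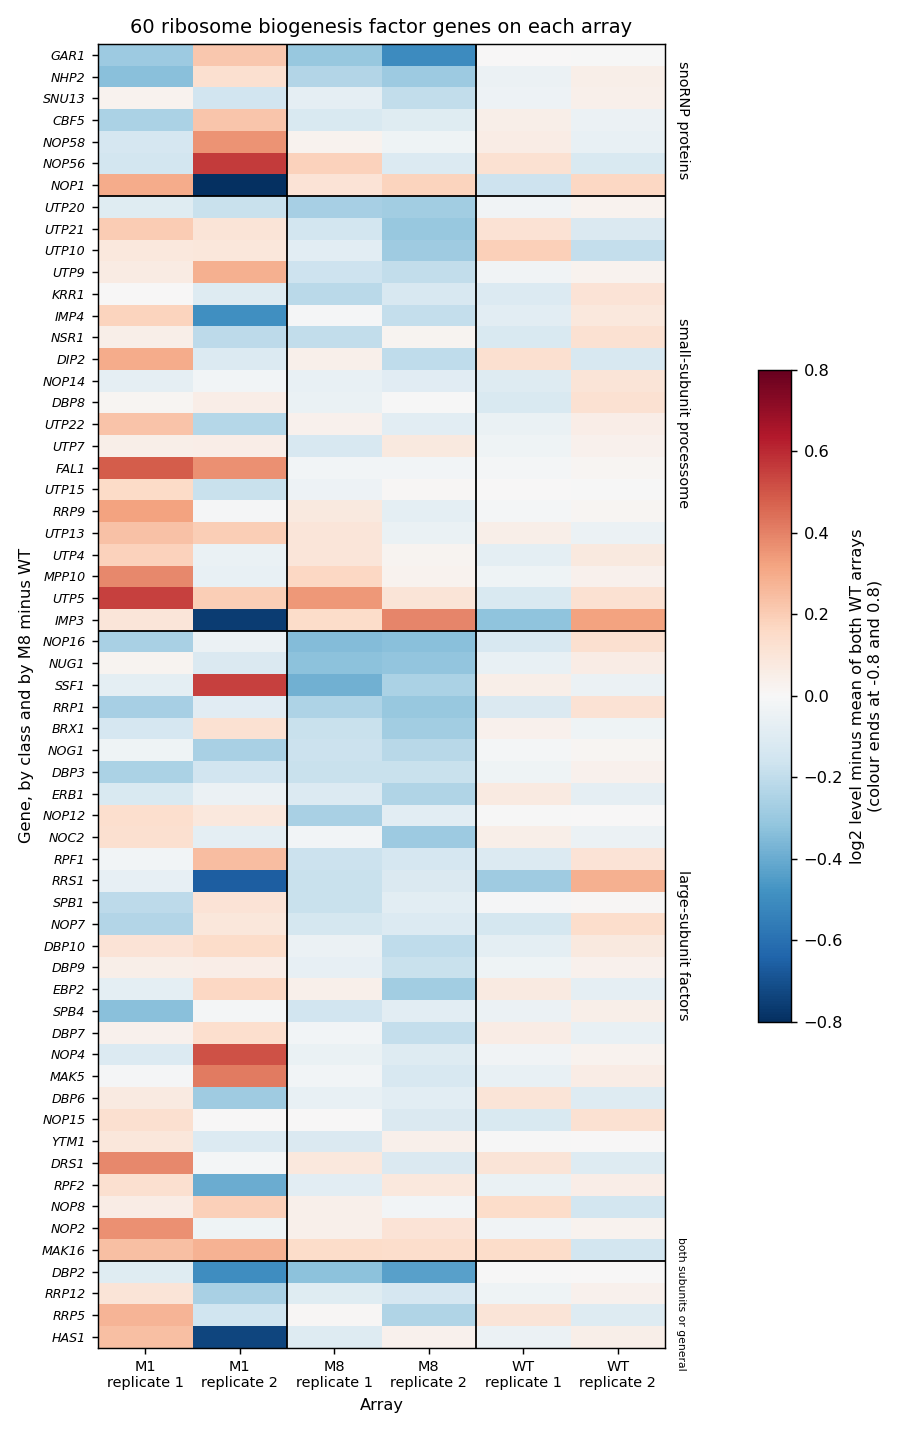
Each row is 1 of the 60 factor genes and each column 1 array, and the colour gives the log2 level minus the mean of both WT arrays. The M8 columns are mostly pale blue, with 48 of 60 genes lower than WT on average, while the M1 columns differ from each other, as in NOP1 and HAS1.

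Among the snoRNP core proteins, the box H/ACA genes GAR1 and NHP2 lay lowest relative to WT in M8. GAR1 (YHR089C), which encodes a small glycine- and arginine-rich H/ACA protein, had log2 levels of 11.25 and 11.76 in M1 and of 11.23 and 11.04 in M8, against 11.54 and 11.54 in WT. Both M8 arrays lay below both WT arrays, while the M1 arrays lay on either side of WT. The difference of M8 minus WT was -0.40 (SE 0.17, 95% interval -0.81 to 0.0018, limma adjusted p = 0.707), a linear change of -24.4% and the most negative of the 60. NHP2 (YDL208W), whose protein binds H/ACA RNAs, had log2 levels of 11.17 and 11.64 in M1 and of 11.27 and 11.22 in M8, against 11.46 and 11.55 in WT. Its M8 minus WT was -0.26 (SE 0.16, limma adjusted p = 0.822). CBF5 (YLR175W), the gene of the pseudouridine synthase itself, had log2 levels of 10.83 and 11.31 in M1 and of 10.96 and 10.98 in M8, against 11.13 and 11.04 in WT. Its difference was -0.11 (SE 0.16). In all 3 H/ACA genes among the 60 the M8 arrays therefore lay below both WT arrays, a pattern found in 41.7% of the 60 genes and 19.1% of all genes. None of the 3 differences was called by limma.

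Of the 4 box C/D core genes, 3 lay close to or above WT in M8. NOP1 (YDL014W), the fibrillarin methyltransferase gene, had an M8 minus WT of 0.14 (SE 0.31), NOP56 (YLR197W) of 0.036 (SE 0.23) and NOP58 (YOR310C) of -0.0017 (SE 0.17). SNU13 (YEL026W) encodes a protein that binds the kink-turn of C/D RNAs and of the spliceosomal U4 RNA. Its log2 levels were 12.80 and 12.62 in M1 and 12.70 and 12.58 in M8, against 12.73 and 12.81 in WT, a difference of -0.13 (SE 0.12) for M8. NOP58 was read by 4 probe sets, and the other 3 had differences between -0.16 and -0.041 in M8. Over the 7 snoRNP proteins the median of M8 minus WT was -0.11, with 5 below 0, and whether the H/ACA and C/D genes differ from each other was not tested.

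In the small-subunit processome the M8 values were closer to WT. The median of M8 minus WT was -0.026 over 20 genes, with 14 of 20 below 0 and 5, or 25%, with both M8 arrays below both WT arrays, near the 19.1% of all genes. UTP20 (YBL004W), which encodes a large repeat protein of the processome, had log2 levels of 8.088 and 8.004 in M1 and of 7.92 and 7.90 in M8, against 8.16 and 8.21 in WT. All 4 mutant arrays lay below both WT arrays. M8 minus WT was -0.27 (SE 0.11, limma adjusted p = 0.671), and M1 minus WT was -0.14 (SE 0.11). The 9 other probe sets assigned to UTP20 were dim, with means between 2.74 and 5.46, and gave -0.11 to 0.37 in M8 and -0.054 to 0.46 in M1, so the lower M8 level stood mainly at 1 probe set. With the mean of all its probe sets, UTP20 was higher than WT, by 0.092 in M8 and 0.20 in M1.

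At the other end of this class stood IMP3 and UTP5. IMP3 (YHR148W), whose protein bridges U3 and the precursor together with Imp4 and Mpp10, had log2 levels of 7.69 and 6.84 in M1 and of 7.75 and 7.99 in M8, against 7.28 and 7.92 in WT. The WT arrays were themselves 0.65 apart, and the M8 difference of 0.27 had an SE of 0.30. UTP5 (YDR398W), a subunit of the UtpA complex that binds the nascent precursor first, had log2 levels of 9.68 and 9.33 in M1 and of 9.48 and 9.24 in M8, against 9.01 and 9.26 in WT. Both M1 arrays lay above both WT arrays and M8 replicate 2 did not, with differences of 0.37 (SE 0.16, limma adjusted p = 0.599) in M1 and, for M8, of 0.22 (SE 0.16). The 5 UtpA genes among the 60 spread from -0.18 to 0.22 in M8, with 3 below 0. The 3 UtpB genes among the 60 spread from -0.22 to 0.021, with 2 below 0. UTP22 (YGR090W), a UtpC component, had differences of -0.025 (SE 0.16) in M8 and -7.0e-05 (SE 0.16) in M1. Its 5 other probe sets were dim, with means between 2.75 and 4.40. They gave -0.29 to 0.15 in M8 and -0.44 to -0.038 in M1. With the mean of all its probe sets, M1 minus WT was -0.20.

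The large-subunit factors, which make up 29 of the 60 genes, held 25 of the 48 genes with an M8 difference below 0. Their median was -0.12, and 14, or 48.3%, had both M8 arrays below both WT arrays, against 19.1% of all genes. NUG1 (YER006W), a nuclear GTPase gene of pre-60S assembly, had log2 levels of 9.58 and 9.44 in M1 and of 9.23 and 9.24 in M8, against 9.50 and 9.62 in WT. The M8 arrays lay below all 4 other arrays, with M8 minus WT of -0.32 (SE 0.11, 95% interval -0.59 to -0.053, limma adjusted p = 0.660). NOP16 (YER002W), a pre-60S component gene, had log2 levels of 9.23 and 9.45 in M1 and of 9.14 and 9.16 in M8, against 9.37 and 9.62 in WT, and an M8 minus WT of -0.34 (SE 0.14, limma adjusted p = 0.671). Its M8 arrays again were the lowest of the 6, and M1 replicate 1 was also below WT.

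SSF1 and RRP1 completed the large-subunit genes farthest from WT in M8. SSF1 (YHR066W) encodes a Brix-domain factor of early pre-60S particles and has a close copy, SSF2, which its probe set may also read. SSF1 had log2 levels of 8.16 and 8.79 in M1 and of 7.85 and 7.99 in M8, against 8.29 and 8.19 in WT. M8 minus WT was -0.32 (SE 0.20), while SSF2 had an M8 minus WT of -0.0020 (SE 0.11) at its own probe set. RRP1 (YDR087C), a gene of large-subunit RNA processing, had log2 levels of 8.01 and 8.19 in M1 and of 8.04 and 7.98 in M8, against 8.16 and 8.40 in WT, with differences of -0.18 (SE 0.13) in M1 and -0.27 (SE 0.13) in M8. MAK16 (YAL025C), a pre-60S factor gene, had the most positive M8 difference of the class, 0.14 (SE 0.13), with log2 levels of 6.79 and 6.79 in M8 against 6.79 and 6.50 in WT. The Nop7 complex, formed by the products of NOP7, ERB1 and YTM1, had M8 differences between -0.18 and -0.038, with 3 of 3 below 0.

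**Figure D2:**
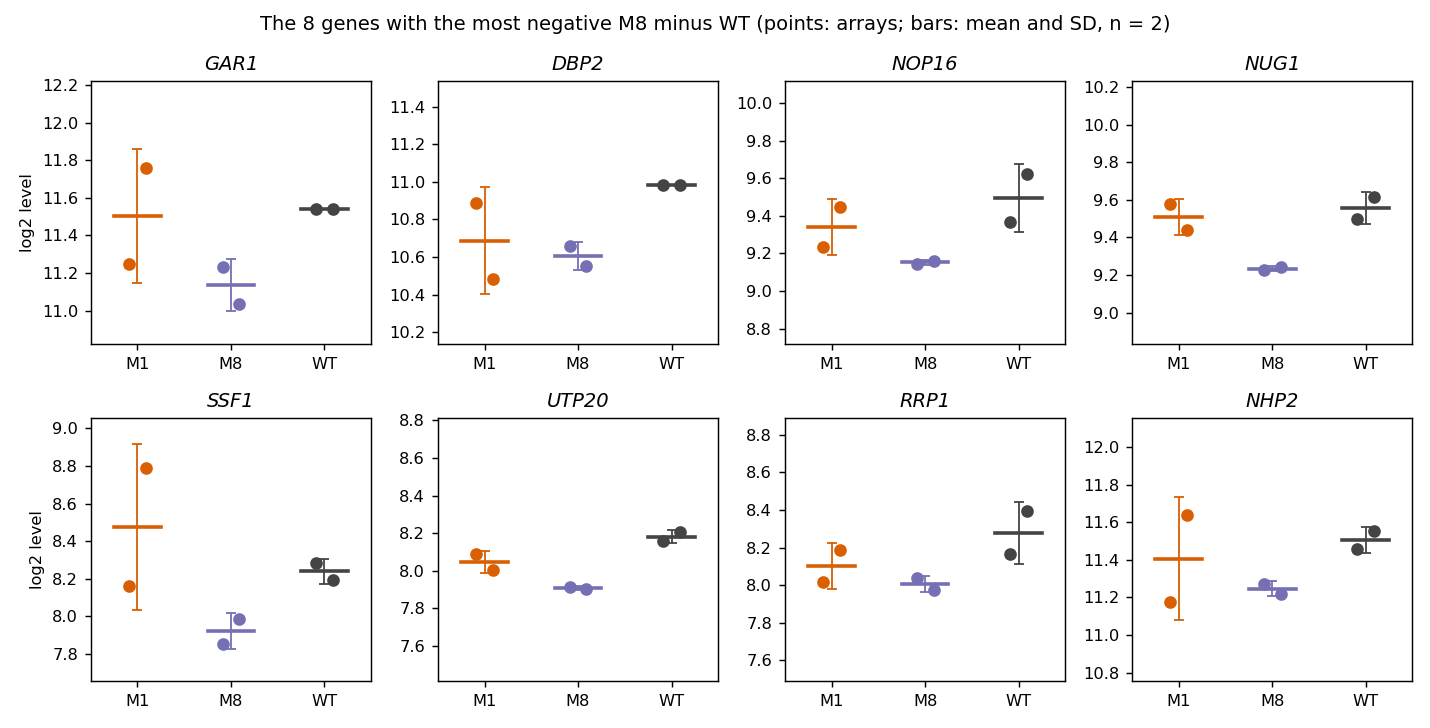
The log2 levels of the 8 factor genes with the most negative M8 minus WT, with points for arrays and bars for the mean and SD (n = 2) of M1, M8 and WT, on axes of equal length that do not start at 0. In all 8 the M8 arrays lie below both WT arrays, which follows largely from choosing them by this difference. The pattern is found in 19.1% of all genes. M1 arrays lie on either side of WT in GAR1, NHP2 and SSF1.

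Of the factors with a wider role, DBP2 lay farthest from WT in M8. DBP2 (YNL112W) is an RNA helicase gene whose product acts in ribosomal RNA processing and in messenger RNA metabolism. It had log2 levels of 10.89 and 10.49 in M1 and of 10.66 and 10.55 in M8, against 10.98 and 10.99 in WT. All 4 mutant arrays lay below both WT arrays, with differences of -0.30 (SE 0.15, limma adjusted p = 0.633) in M1 and -0.38 (SE 0.15, limma adjusted p = 0.671) in M8. A second probe set of DBP2 had log2 levels of 8.34 and 7.66 in M1 and of 8.40 and 8.45 in M8, against 8.51 and 8.63 in WT, so both probe sets placed the 4 mutant arrays below WT. DBP2 is 1 of 12 DEAD-box RNA helicase genes among the 60, enzymes that unwind or remodel RNA in both subunit pathways. In M8, 12 of 12 helicase genes had a difference below 0, against 80% of the 60 genes and 43% of all genes. Their median was -0.090, against -0.11 over the 60 genes. Both M8 arrays lay below both WT arrays in 5 of the 12, against 41.7% of the 60 genes and 19.1% of all genes. By limma 0 of the 12 were called, with 1 lower and 0 higher at an unadjusted p under 0.05, against 2.32% and 4.74% of all genes. In M1, 5 of the 12 were below 0.

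In M1, the 60 genes were evenly divided around WT. The median of M1 minus WT was 0.013 against 0.012 over all genes, and 30 of 60 genes were below 0, against 47.3% of all genes. Both M1 arrays lay below both WT arrays for 4 genes, or 6.67%, against 13.5% of all genes, and above them for 9, or 15%, against 22% of all genes. By limma 0 of the 60 were called, as were 0% of all genes, with 0 lower and 1 higher at an unadjusted p under 0.05, against 3.47% and 5.11% of all genes. Class medians were -0.035 for the snoRNP proteins, 0.057 for the small-subunit processome and 0.026 for the large-subunit factors. Each of these changed sign with the M1 array used. The large-subunit median was 0.0028 without M1 replicate 1 and -0.012 without M1 replicate 2. The snoRNP median was 0.22 without M1 replicate 1 and -0.15 without M1 replicate 2, and the processome median was -0.038 and 0.17 in the same order, and 0.0043 without WT replicate 1. Without M1 replicate 1, where the lone M1 array is assumed to vary like the other groups, limma called 5 of the 60 genes in M1, or 8.33%, against 6.75% of all genes, with NOP1, HAS1 and DBP2 lower and NOP4 and SSF1 higher, against 0 without M1 replicate 2.

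The 1 gene higher in M1 at an unadjusted p under 0.05 was FAL1 (YDR021W), a DEAD-box helicase gene of small-subunit processing. FAL1 had log2 levels of 6.53 and 6.42 in M1 and of 6.03 and 6.03 in M8, against 6.03 and 6.06 in WT. The M1 arrays stood above the 4 others, which lay between 6.03 and 6.06, and M1 minus WT was 0.43 (SE 0.11, limma adjusted p = 0.396). The other positive ends of M1 were UTP5, MAK16 with 0.26 (SE 0.13) and SSF1 with 0.23 (SE 0.20). On the lower side DBP3 (YGL078C), a helicase gene of large-subunit RNA processing, had log2 levels of 8.41 and 8.51 in M1 and of 8.48 and 8.49 in M8, against 8.63 and 8.70 in WT. Its differences were -0.20 (SE 0.11) in M1 and -0.18 (SE 0.11) in M8, with all 4 mutant arrays below both WT arrays. SPB4 (YFL002C), a further large-subunit helicase gene, had log2 levels of 8.53 and 8.85 in M1, against 8.82 and 8.91 in WT, and an M1 minus WT of -0.18 (SE 0.14). M1 replicate 1 lay below both WT arrays and M1 replicate 2 between them, and without M1 replicate 1 the difference was -0.015.

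Further low values of M1 were found in genes whose duplicates lay far apart. RRS1 (YOR294W), whose protein helps to bring the 5S particle into the large subunit, had log2 levels of 7.89 and 7.30 in M1, against 7.67 and 8.24 in WT, a difference of -0.36 (SE 0.24). HAS1 (YMR290C), a helicase gene of both subunits, had 8.20 and 7.22 in M1, against 7.91 and 8.01 in WT, a difference of -0.25 (SE 0.27). NOP1 had 10.83 and 9.73 in M1, against 10.37 and 10.70 in WT, a difference of -0.25 (SE 0.31), and IMP3 had a difference of -0.33 (SE 0.30). In HAS1 and NOP1, M1 replicate 1 lay above both WT arrays and M1 replicate 2 below them.

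**Figure D3:**
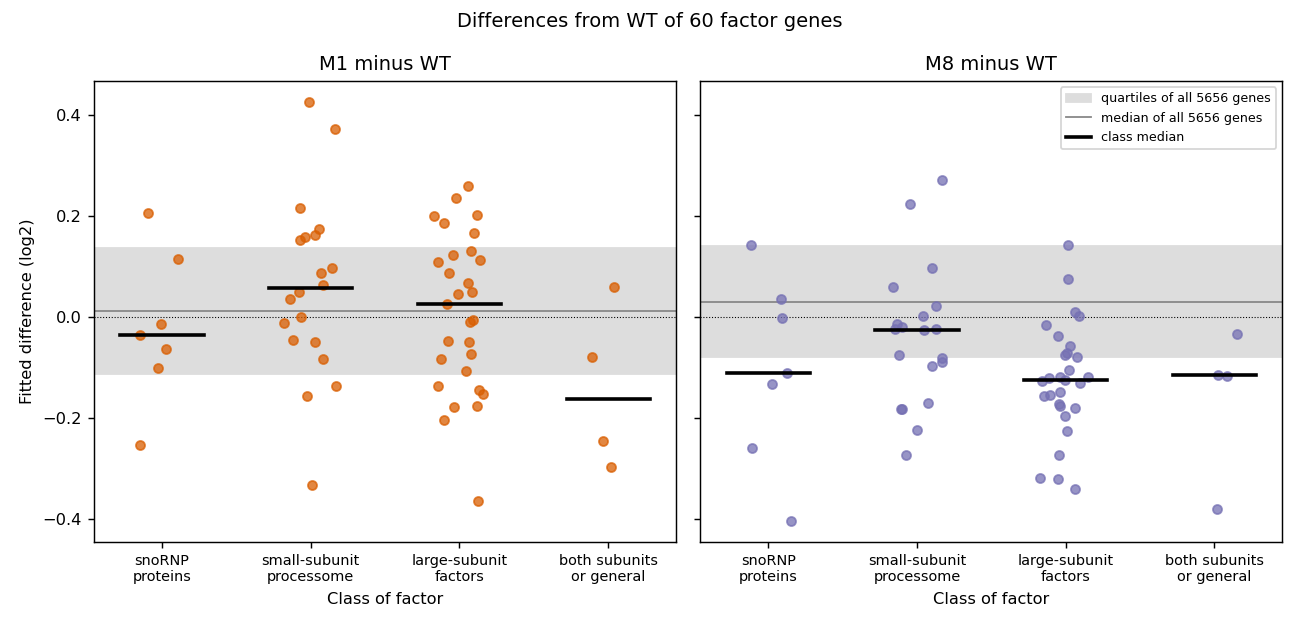
Fitted differences from WT in log2 units, with M1 on the left and M8 on the right, for the 60 genes split by class, where points are genes, black lines class medians, the grey line the median and the grey band the range between the lower and upper quartiles of all 5656 genes. The M8 medians of the snoRNP proteins (-0.11) and large-subunit factors (-0.12) lie under the grey band, while the processome median (-0.026) lies inside it.

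The M1 duplicates disagreed in most of the snoRNP proteins. A gap of 0.4 chosen after the values were seen was reached by 21 of the 60 genes in M1, or 35%, against 21.7% of all genes, by 0 in M8 and by 2 in WT. M1 replicate 2 was the higher array in 8 of the 21 and the lower in 13. Among the 7 snoRNP proteins, 5 were higher by at least this gap in M1 replicate 2, namely GAR1, NHP2, CBF5, NOP56 and NOP58, and 1 was lower, NOP1. In the 3 H/ACA genes the difference of M1 replicate 2 minus M1 replicate 1 lay between 0.46 and 0.51. That difference was -1.10 in NOP1, -0.98 in HAS1 and -0.86 in IMP3 on the log2 scale. The tRNA signals also split these arrays, with a median of -0.49 on M1 replicate 1 and 0.34 on M1 replicate 2 relative to the WT mean, and the small nucleolar RNA genes had -0.21 and 0.19. The part of these RNA classes in the split was not tested.

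**Figure D4:**
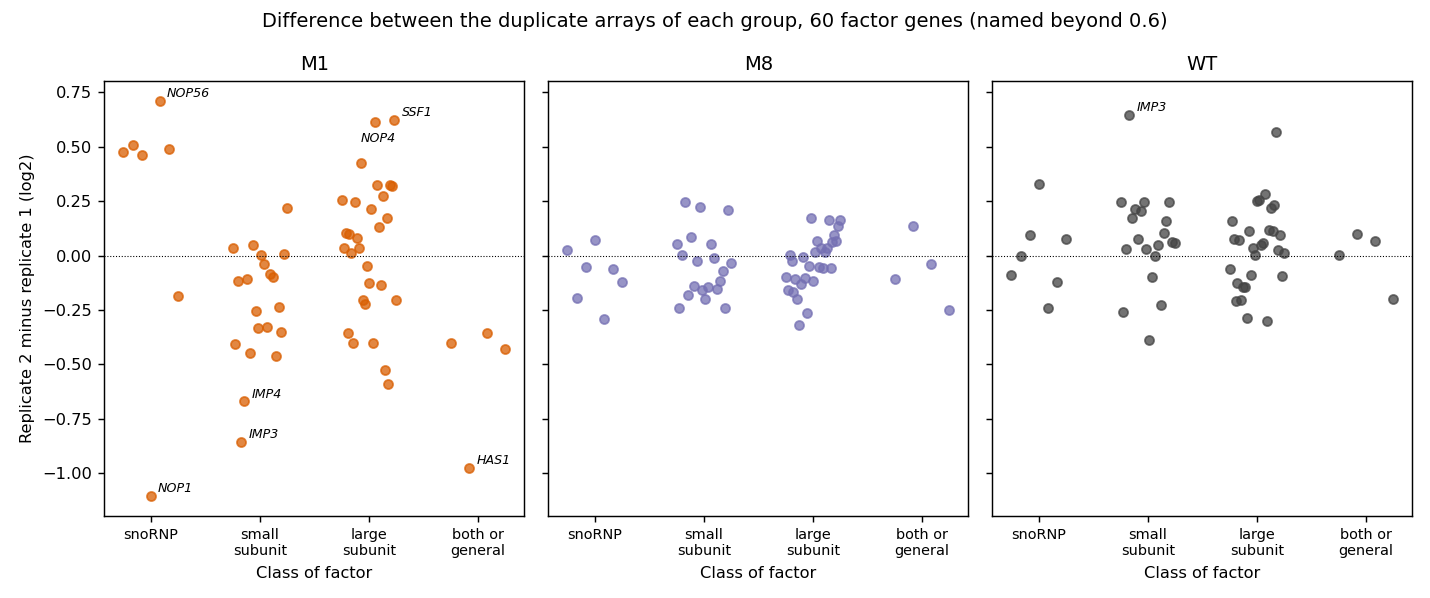
Log2 level of replicate 2 minus replicate 1 for the 60 genes by class, in M1, M8 and WT, with genes named where the replicates are more than 0.6 apart. The M1 points spread from -1.10 to 0.71, against -0.32 to 0.25 in M8 and -0.39 to 0.65 in WT.

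The comparison of M8 with M1 asks whether the mutants differ from each other, and shares the M8 arrays with the comparison to WT. The median of M8 minus M1 was -0.12 over the 60 genes, against 0.0093 over all genes, and 51 of 60 genes, or 85%, were below 0, against 47.6% of all genes. Both M8 arrays lay below both M1 arrays in 22 genes, or 36.7%, against 18.4% of all genes, and above them in 1, IMP3, against 19.5%. By limma 0 of the 60 were called, as were 0% of all genes, with 6 lower and 0 higher at an unadjusted p under 0.05, against 2.32% and 4.12% of all genes. In the processome 18 of 20 genes were lower in M8 than in M1, with a median of -0.097. Large-subunit factors had 24 of 29 lower with a median of -0.13, and snoRNP proteins 6 of 7 with a median of -0.12.

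The 6 genes lower in M8 than in M1 at an unadjusted p under 0.05 were SSF1, FAL1, UTP21, UTP9, NOP12 and NUG1, each with limma adjusted p = 0.721. SSF1 had a difference of -0.55 (SE 0.20) and FAL1 of -0.45 (SE 0.11). UTP21 (YLR409C), a UtpB subunit gene, had log2 levels of 8.84 and 8.69 in M8 against 9.19 and 9.09 in M1, a difference of -0.38 (SE 0.13). UTP9 (YHR196W), a UtpA subunit gene, had 7.97 and 7.94 in M8 against 8.20 and 8.42 in M1, a difference of -0.36 (SE 0.12), with WT between them at 8.11 and 8.16. NOP12 (YOL041C), an RNA-binding factor gene of large-subunit RNA processing, had 7.06 and 7.24 in M8 against 7.46 and 7.41 in M1, a difference of -0.28 (SE 0.11), with WT between them at 7.32 and 7.32. In 4 of the 60 genes, UTP9, NOP12, DBP9 and FAL1, both M1 arrays lay above and both M8 arrays below both WT arrays, as in 1.49% of all genes, while the opposite pattern was found in 0 of the 60 and 0.919% of all genes, and FAL1 had an M8 minus WT of only -0.021. NOP12, UTP9, UTP21 and DBP9 were chosen after their values were seen. Without M1 replicate 1, limma called 8 of the 60 genes between M8 and M1, or 13.3%, against 13.2% of all genes, with GAR1, NOP4, MAK5, SSF1 and UTP9 lower and NOP1, HAS1 and IMP3 higher in M8, against 0 without M1 replicate 2.

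Set against WT as a mean of both mutants, the 60 genes had a median of -0.037 against 0.020 over all genes, with 41 below 0, against 44.7% of all genes. Every mutant array lay below both WT arrays in DBP2, DBP3, UTP20 and NOG1, the last a nucleolar GTPase gene, which is 6.67% of the 60 against 6.86% of all genes. No member had all 4 above, against 11.9% of all genes. Limma called 0 of the 60, against 0.0177% of all genes lower and 0.053% higher, with 1 lower and 0 higher at an unadjusted p under 0.05, against 2.74% and 5.25% of all genes. The signs of the fitted differences in M1 and M8 gave 27 genes lower in both, 21 higher in M1 and lower in M8, 3 lower in M1 and higher in M8, and 9 higher in both, and these comparisons share the WT arrays.

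Factors of the same pathway outside the 60 genes lay on the same side in M8. Of 44 other small-subunit factors 34 were below 0 with a median of -0.081, and of 40 other large-subunit factors 33 with a median of -0.12. Both M8 arrays lay below both WT arrays in 14 of the 44 and 15 of the 40, against 19.1% of all genes. By limma 0 were called in either list, with 2 and 3 lower and 0 and 0 higher at an unadjusted p under 0.05, against 2.32% lower and 4.74% higher among all genes. The 2 largest M8 differences of each list were, for the large subunit, those of ALB1, a pre-60S shuttling factor gene, with -0.44 (SE 0.18), and NOP53, a late nuclear pre-60S factor gene, with -0.38 (SE 0.21), and for the small subunit those of FCF1, a PIN-domain processome gene, with -0.37 (SE 0.15), and ROK1, a small-subunit helicase gene, with -0.29 (SE 0.12). In M1, 13 of the 44 and 20 of the 40 were below 0, with medians of 0.063 and -0.0011. The 2 largest M1 differences of each list were, for the large subunit, -0.47 (SE 0.23) for TIF6, which keeps subunits apart, and -0.45 (SE 0.28) for LOC1, and for the small subunit 0.36 (SE 0.13) for NOB1, the endonuclease gene of the last small-subunit cleavage, and 0.31 (SE 0.12) for DHR2, a DEAH-box helicase gene.

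The lists for snoRNP assembly, RNA trimming, transcription and regulation were mixed. Of 9 measured genes in the list of other snoRNP core and assembly genes, 4 were below 0 in M8, with a median of 0.047. In M1, 2 were below 0, with a median of 0.068. NOP10, also listed, had no probe set that read it alone and was not measured. The largest of these were RSA1, a C/D assembly factor gene, with -0.26 (SE 0.14), and the H/ACA assembly gene NAF1, with 0.17 (SE 0.15), in M8, and SHQ1, a Cbf5 chaperone gene, with 0.28 (SE 0.14), and the C/D assembly gene BCD1, with 0.23 (SE 0.15), in M1. Exosome and RNA trimming genes had 15 of 21 below 0 in M8 with a median of -0.088, and 11 of 21 in M1 with a median of -0.072. Among them the exosome cofactor genes MPP6 and LRP1 had -0.32 (SE 0.15) and -0.26 (SE 0.16) in M8, and LRP1 and the core subunit gene RRP40 had -0.48 (SE 0.16) and -0.31 (SE 0.14) in M1. RNA polymerase I subunit and initiation factor genes had 9 of 16 below 0 in M8, with a median of -0.0029, and 11 of 16 in M1, with a median of -0.063.

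RRN6 and STB3 stood at the ends of the remaining lists. RRN6, a core initiation factor gene of RNA polymerase I, had log2 levels of 7.01 and 7.32 in M1 and of 7.08 and 7.16 in M8, against 7.54 and 7.48 in WT, with differences of -0.35 (SE 0.13) in M1 and -0.39 (SE 0.13) in M8. RRN10 had an M1 difference of -0.31 (SE 0.23), and RRN11 an M8 difference of 0.22 (SE 0.14). Of 11 regulators of the regulon 2 were below 0 in M8, with a median of 0.11, and 4 in M1, with a median of 0.015. STB3, which encodes a protein that binds the rRNA processing element of these promoters, had log2 levels of 6.13 and 6.42 in M1 and of 5.94 and 6.09 in M8, against 5.56 and 5.80 in WT. All 4 mutant arrays lay above both WT arrays, a pattern found in 11.9% of all genes. The differences of STB3 were 0.60 (SE 0.15, limma adjusted p = 0.390) in M1 and 0.33 (SE 0.15, limma adjusted p = 0.707) in M8. The general factor gene ABF1 had 0.31 (SE 0.13) in M8, and RAP1 had 0.16 (SE 0.11) in M1. By limma 0 of the 57 genes of these 4 lists were called in M1 or M8, with 1 lower and 1 higher in M8 and 2 lower and 1 higher in M1 at an unadjusted p under 0.05. The shares of all genes at that p were 3.47% lower and 5.11% higher in M1, and 2.32% lower and 4.74% higher in M8.

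**Figure D5:**
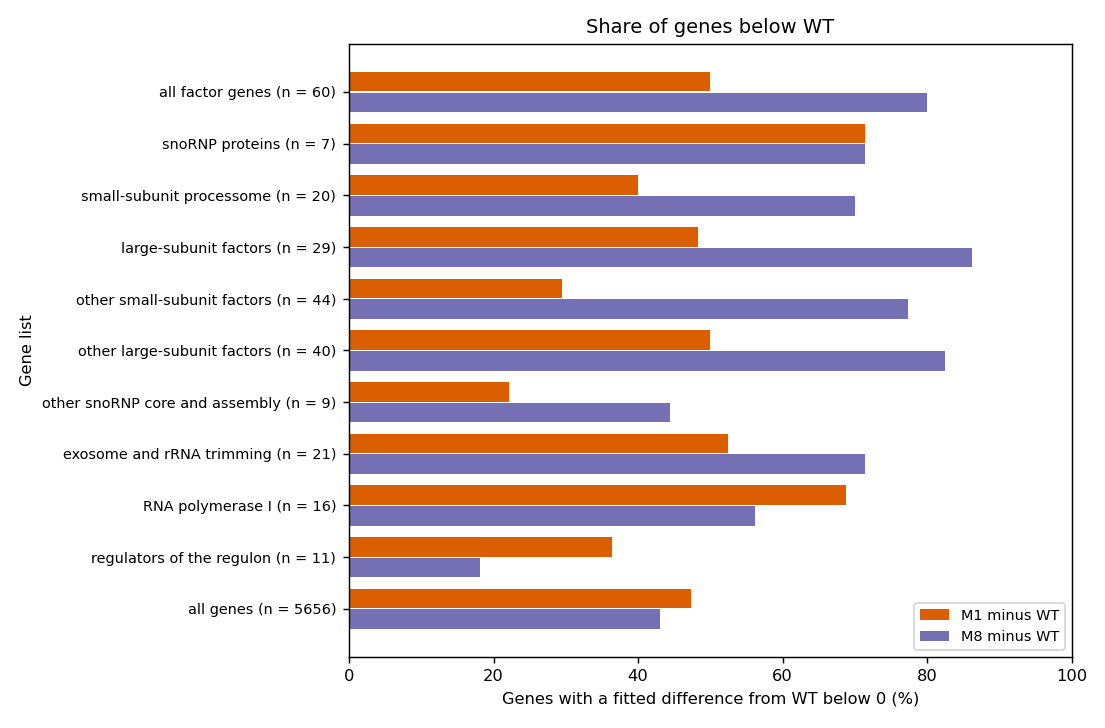
Share of genes with a fitted difference from WT below 0, in percent, for M1 minus WT and M8 minus WT, in the 60 factor genes, their 3 main classes, other lists of the pathway and all 5656 genes. In M8 the share is 80% for the 60 genes and 86.2% for the large-subunit factors, against 43% for all genes, while in M1 it is 50% for the 60 genes against 47.3%.

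Few of the 60 genes are chromosomal neighbours. By the gene order of the R64 annotation, 1 pair of them is adjacent, RPF1 (YHR088W) and GAR1 (YHR089C), which converge. RPF1, a Brix-domain pre-60S factor gene, had log2 levels of 8.17 and 8.20 in M8 against 8.23 and 8.45 in WT. Both genes of the pair thus had their M8 arrays below both WT arrays, as did 41.7% of the 60 genes and 19.1% of all genes. A further 4 of the 60 lie beside another assembly factor of the lists, and these were SSF1 beside RRP3, DBP8 beside NMD3, UTP9 beside RIX1 and UTP13 beside RSA3.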

How the data were processed

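The authors deposited log2 expression levels for 9275 probe sets on 6 arrays. The submitters' processing notes name RMA and oligo, an R package, with no version, and the settings used were not stated there. RMA puts arrays on one scale, so a change shared by most genes would not be seen. RMA gives no detection call, and precision is limited by the number of arrays.

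Probe sets naming several genes (328) or none (2443) in the platform annotation were left out. The 6504 others were reduced to 5656 genes by keeping, per gene, the brightest on average. Names and the order of neighbouring genes came from the R64 gene table, which held every one of the 6504. No build is named for the array, so no coordinates are given.

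Group means of all 6 arrays were fitted with limma 3.58.1 in R 4.3.3 (3 residual degrees of freedom, eBayes defaults), with two-sided p-values adjusted by Benjamini-Hochberg over all genes. The fit was tested on simulated data with the same spread in every gene and group. On the arrays, the SD between duplicates over all genes was 0.349 in M1, 0.142 in M8 and 0.198 in WT. The simulation therefore does not check the effect of pooling these unequal spreads. Intervals are 95% intervals from the same fit. The members, the lists and the rule for named genes were chosen with earlier results of these data known, and lists were described by counts and medians with no test. That rule takes, for each mutant against WT, the 8 most negative and 4 most positive members, members with several probe sets, the snoRNP proteins, the 2 genes with the largest absolute difference of each other list and SSF2. NOP2, NOG1, RPF1 and the neighbouring genes were also named after their values were seen. Alternatives covered normalization, probe sets, dim genes, moderation, the arrays in the fit and the replicate number.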

Additional observations from a re-analysis of the deposited data

How the results depend on the processing

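Over 14 alternatives the median of M8 minus WT over the 60 genes lay between -0.13 and -0.069, with 42 to 51 genes below 0 and 0 called. Many of the 14 could not move this median. The settings of moderation, the replicate block, the groups fitted and the M1 arrays leave the M8 and WT means unchanged. Leaving out dim genes removed 0 of the 60. Only normalization, the mean of probe sets and leaving out a WT or M8 array could change its direction, and none did. The medians of M8 minus M1 lay between -0.15 and -0.084, with 38 to 51 of the 60 genes below 0. The processome median of M8 minus WT lay between -0.066 and 0.00086, and the snoRNP median between -0.13 and -0.066. In M1, leaving out arrays gave snoRNP medians of -0.15 to 0.22, processome medians of -0.038 to 0.17 and large-subunit medians of -0.012 to 0.026.

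Over all genes, limma called 3 genes in M1 minus WT under median centring, under the mean of all probe sets and under eBayes with trend and robust, against 0. With only the groups compared it called 23 genes in M8 minus WT, against 0. For the mean of both mutants it called 0 under quantile normalization, the ordinary linear model and the replicate block, against 4. Leaving out single arrays gave 0 to 382 calls in M1 minus WT, 0 to 23 in M8 minus WT, 0 to 748 in M8 minus M1 and 0 to 132 for the mean of both mutants. The highest counts of M1 minus WT and of M8 minus M1 were found without M1 replicate 1. That of M8 minus WT was found without M1 replicate 1 alone and again without M1 replicate 2 alone. For the mean of both mutants the highest count was found without M1 replicate 2. Of the 60 genes, 0 to 5 were called in M1 minus WT and 0 to 8 in M8 minus M1. The cause of these changes was not tested.

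With the replicate block, 0 of the 60 genes were called in M8 minus WT. Every group holds the same replicate numbers, so the block could change only the spread. The median of -0.11 was therefore fixed in advance and does not check for a batch. The deviations of same-numbered arrays correlated across genes at -0.31 between M1 and WT, 0.30 between M8 and WT and -0.11 between M8 and M1. The labels do not say whether a number marks a shared batch or day, and the arrays were not treated as paired.

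Signs turned in single genes. In M1 minus WT, quantile normalization gave 0.044 for GAR1 and 0.0028 for CBF5, and the mean of probe sets gave 0.20 for UTP20. In M8 minus WT they gave 0.015 for NOP58 and 0.092 for UTP20. Leaving out single arrays gave these ranges of M1 minus WT: IMP3 -0.76 to 0.095, NOP1 -0.81 to 0.30, HAS1 -0.73 to 0.24, SSF1 -0.078 to 0.55, GAR1 -0.29 to 0.22, NUG1 -0.12 to 0.020, NHP2 -0.33 to 0.13, NOP58 -0.13 to 0.36, UTP22 -0.23 to 0.23, NOP56 -0.15 to 0.56, SNU13 -0.16 to 0.028 and CBF5 -0.25 to 0.22. The same ranges of M8 minus WT were RRS1 -0.43 to 0.14, IMP3 -0.053 to 0.59, NOP1 -0.021 to 0.31, HAS1 -0.10 to 0.033, MAK16 -0.0025 to 0.29, NOP58 -0.064 to 0.060, UTP22 -0.083 to 0.033 and NOP56 -0.11 to 0.18. The arrays carry no detection calls, so signal over background was not assessed.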
